A study of Mus musculus with 61 samples.

Results

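The genes described here encode the nuclear-made proteins of the mitochondrial respiratory chain and of ATP synthase. They were chosen by symbol: every row of the gene table that starts with Nduf followed by a, b, c, s or v, the rows Sdha to Sdhd, and all rows starting with Uqcr, Cox4 to Cox8 or Atp5, without rows ending in -ps. The rule found 95 genes among the 23927 rows. Complex I had 49 of them, of which 41 were subunits by name and 8 were Ndufaf assembly factors. Complex II had 4, complex III had 8, and complexes IV and V had 17 each. A further 7 rows matched but ended in -ps and were left out. Ndufa11b, Ndufb4c and Ndufs6b met the rule although GENCODE M21 annotates these 3 as processed pseudogenes, so their reads may belong to their parent genes.

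The cells came from ovaries of wild-type CD-1 mice at postnatal day 5, collected 6 hours after an injection into the abdominal cavity of solvent or doxorubicin. Doxorubicin is a chemotherapy drug that poisons topoisomerase II and breaks DNA. Each library held 1 cell. There were 16 control oocytes, 16 doxorubicin (DOXO) oocytes, 16 control granulosa cells and 13 DOXO granulosa cells, all labelled WT and batch 1. The dose is printed as 10 with a unit, mg/kb, that is not a dose unit. No label names the animal or litter of a cell, so each group was treated as 1 sample. No test between groups was made. Fold thresholds and the spread over cells describe these libraries and do not replace a test, since neither measures variation between animals. Intervals cover counting error only.

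The respiratory chain moves electrons from NADH through complex I, or from succinate through complex II, to ubiquinone, then through complex III and cytochrome c to complex IV, where oxygen is reduced. Complexes I, III and IV pump protons across the inner mitochondrial membrane, and complex V, the ATP synthase, uses that gradient to make ATP. Oocytes are rich in mitochondria and rely on pyruvate oxidation, while granulosa cells carry out much of the glycolysis of the follicle. The mitochondrial genome encodes a few core subunits of complexes I, III, IV and V. Its mt- rows numbered 0 in the table, so only the nuclear side was measured.

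Several factors are known to bind promoters of these genes, among them NRF1, GABP of the ETS family and YY1. RefSeq promoter windows on GRCm38.p6 were matched for 75 of the 95 genes, giving 80 windows of 250 bases before the transcript start. The NRF1 letters, GCGC followed by any 2 bases and GCGC again, searched on both strands, were in 21.2% of those windows and in 4.98% of all 32851 windows of the same length. The ETS letters CCGGAAG were in 17.5% against 6.91%, and the YY1 letters ATGGCGG in 7.5% against 2.21%. The windows of the respiratory chain genes were also richer in G and C, with a median of 57.4% against 52.4%, and its part in these shares was not tested. The windows of 4 genes are shown with matched letters in capitals, for genes at least 1.5-fold apart between the control cell types (Ndufaf4 and Cox6b2, higher in oocytes, and Atp5g3 and Cox6a1, higher in granulosa cells). They lie at chr4:24897833-24898082 on the plus strand for Ndufaf4, and on the minus strand at chr7:4753095-4753344 for Cox6b2, chr2:73911327-73911576 for Atp5g3 and chr5:115348959-115349208 for Cox6a1.
Ndufaf4: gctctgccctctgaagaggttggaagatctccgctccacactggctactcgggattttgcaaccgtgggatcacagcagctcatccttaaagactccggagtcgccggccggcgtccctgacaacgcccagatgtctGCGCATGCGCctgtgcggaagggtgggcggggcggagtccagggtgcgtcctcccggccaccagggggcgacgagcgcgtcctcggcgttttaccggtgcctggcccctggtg
Cox6b2: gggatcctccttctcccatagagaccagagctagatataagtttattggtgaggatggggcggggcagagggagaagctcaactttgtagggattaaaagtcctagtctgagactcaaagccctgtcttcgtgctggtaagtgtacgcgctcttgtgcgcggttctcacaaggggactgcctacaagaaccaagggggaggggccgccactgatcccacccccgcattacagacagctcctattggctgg
Atp5g3: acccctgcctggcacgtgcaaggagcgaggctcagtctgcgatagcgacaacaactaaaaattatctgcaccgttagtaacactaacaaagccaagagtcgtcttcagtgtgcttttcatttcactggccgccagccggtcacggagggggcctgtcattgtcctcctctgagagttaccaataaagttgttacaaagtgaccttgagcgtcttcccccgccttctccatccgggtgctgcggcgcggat
Cox6a1: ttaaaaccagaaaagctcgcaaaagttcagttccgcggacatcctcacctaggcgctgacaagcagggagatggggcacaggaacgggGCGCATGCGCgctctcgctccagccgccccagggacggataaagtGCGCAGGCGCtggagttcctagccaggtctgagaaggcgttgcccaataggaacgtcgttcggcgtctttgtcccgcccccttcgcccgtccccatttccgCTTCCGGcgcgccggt
Ndufaf4 held 1 NRF1 match. Cox6a1 held 2 NRF1 matches and 1 ETS match. Neither Cox6b2 nor Atp5g3 held these letters in its window.

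Total counts per library ran from 6834594 to 31262629. Marker genes were checked before the levels were read. All 16 control and all 16 DOXO oocyte libraries had more counts of 17 oocyte markers than of 20 granulosa markers, but DOXO oocytes 9, 11 and 12 also held 3458, 2895 and 2369 CPM (counts scaled to a common library total) of granulosa markers, against at most 822.3 in a control oocyte. The granulosa libraries were less uniform. Oocyte markers exceeded granulosa markers in 5 of 16 control and 8 of 13 DOXO granulosa libraries, and the summed oocyte markers had a median of 1752 CPM (447 to 17523) in control and 9643 CPM (390 to 47128) in DOXO libraries. All 15 oocyte markers that reached 5 CPM were higher in the DOXO granulosa group, though Bmp15 reached it in that group only. Lhx8 and Ddx4, under 5 CPM in both granulosa groups, were lower in the DOXO group. Lhx8 was at 1.82 CPM in control and 0.80 in DOXO granulosa cells, and Ddx4 at 1.93 and 0.66. DOXO granulosa cell 15 also held 33378 CPM of blood and immune markers.

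Together the 95 genes took about the same share of counts in every group. They summed to 20241 CPM in control oocytes (95% Poisson interval 20221 to 20261), 22135 in DOXO oocytes, 22362 in control granulosa cells and 22137 in DOXO granulosa cells. Single control oocytes ranged from 17171 to 25732 CPM with a median of 20146, and DOXO oocytes from 19126 to 26513 with a median of 21612. Control granulosa cells ranged from 15911 to 31313 and DOXO granulosa cells from 15220 to 34323. The ranges of all 4 groups overlap, and granulosa cells spread most.

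**Figure D1:**
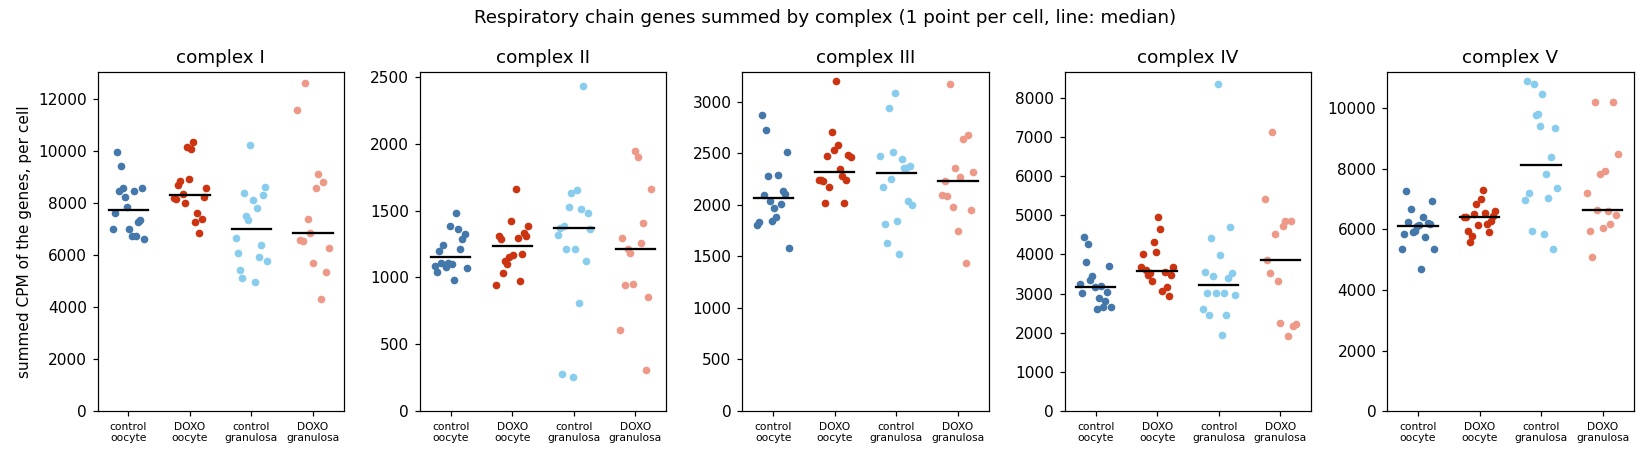
Summed CPM of the genes of each complex, with 1 point per cell, for the 4 groups on the horizontal axis; the line is the median of the cells and each panel starts at 0. Complex V sits higher in control granulosa cells (median 8113 CPM) than in control oocytes (6125 CPM), while the medians of complex I lie between 6853 and 8284 CPM in all 4 groups.

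Divided by transcript length, the genes were among the well-expressed ones. Their median was 174 CPM per kb in control oocytes, where the median of the 10347 genes at 5 CPM or more was 15.8. In control granulosa cells it was 202 against 15.3. Cox4i1, a regulatory subunit of complex IV, led both oocyte groups with 1174 CPM per kb in controls and 1552 after doxorubicin. Atp5b, the catalytic beta subunit of ATP synthase, led control granulosa cells with 1417 CPM per kb. In oocytes 88 of the 95 genes had at least 5 reads in every control cell and 87 in every DOXO cell. In granulosa cells this held for 60 of the 95 in control and 73 in DOXO libraries.

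Cell-to-cell variation was lower than that of all genes above the same floor, which were not matched for level. Among genes at 50 CPM or more, the median coefficient of variation over control oocytes was 23.3% for 75 respiratory chain genes and 29.5% for all 4591 genes. Over control granulosa cells it was 50.6% for 76 respiratory chain genes and 105% for all 4687 genes. The DOXO groups gave 23.6% against 34.2% in oocytes and 52.4% against 106% in granulosa cells.

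In oocytes, most of these genes were slightly higher after doxorubicin. Of the 95 genes, 89 reached 5 CPM in either oocyte group. Their median log2 ratio, DOXO over control, was 0.14, a fold of 1.10, and 76 of 89 lay above 0, where 51.1% of the 11119 genes so filtered did and the median of all genes was 0.01. All 5 complexes had a median above 0, from 0.09 in complex IV to 0.18 in complex III. The log2 ratios of the summed CPM ranked the complexes differently, from 0.050 in complex II and 0.076 in complex V to 0.20 in complex III and 0.21 in complex IV, so no order of the complexes is read from either. Only Ndufa4l2 was at least 1.5-fold higher (11.8% of all genes were) and none was 1.5-fold lower (7.73%); at 2-fold the counts were also 1 and 0 (6.30% and 2.45% of all genes). With each cell left out in turn, 65 of the 89 genes stayed above 0 and 7 stayed below 0, a count not made over all genes. Leaving out control oocyte 16 gave the lowest median, 0.09, with 70 genes above 0 (51.5% of all genes were). Without control oocyte 3 it was highest, 0.19, with 81 genes above 0 (51.8%). Cell type markers moved with these groups. Of 17 oocyte markers 12 were lower in DOXO oocytes, with a median log2 ratio of -0.25, and their group sum was 36501 CPM against 44860 in controls. Of the 4 granulosa markers at 5 CPM or more in control oocytes, Inha, Wnt4 and Gja1 were higher in DOXO oocytes and Amhr2 was lower. Fst, Hsd17b1, Krt19 and Esr2 reached 5 CPM in DOXO oocytes only, so the filter could admit them only as higher. Some markers under 5 CPM in both groups were lower, Bmp2 and Wt1 among them. All 20 granulosa markers summed to 572 CPM in DOXO and 176 CPM in control oocytes. Without the libraries rich in granulosa markers, 69 of 89 genes lay above 0 (49.4% of all genes did), with a median of 0.13. The part of the lower oocyte markers was not tested.

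**Figure D2:**
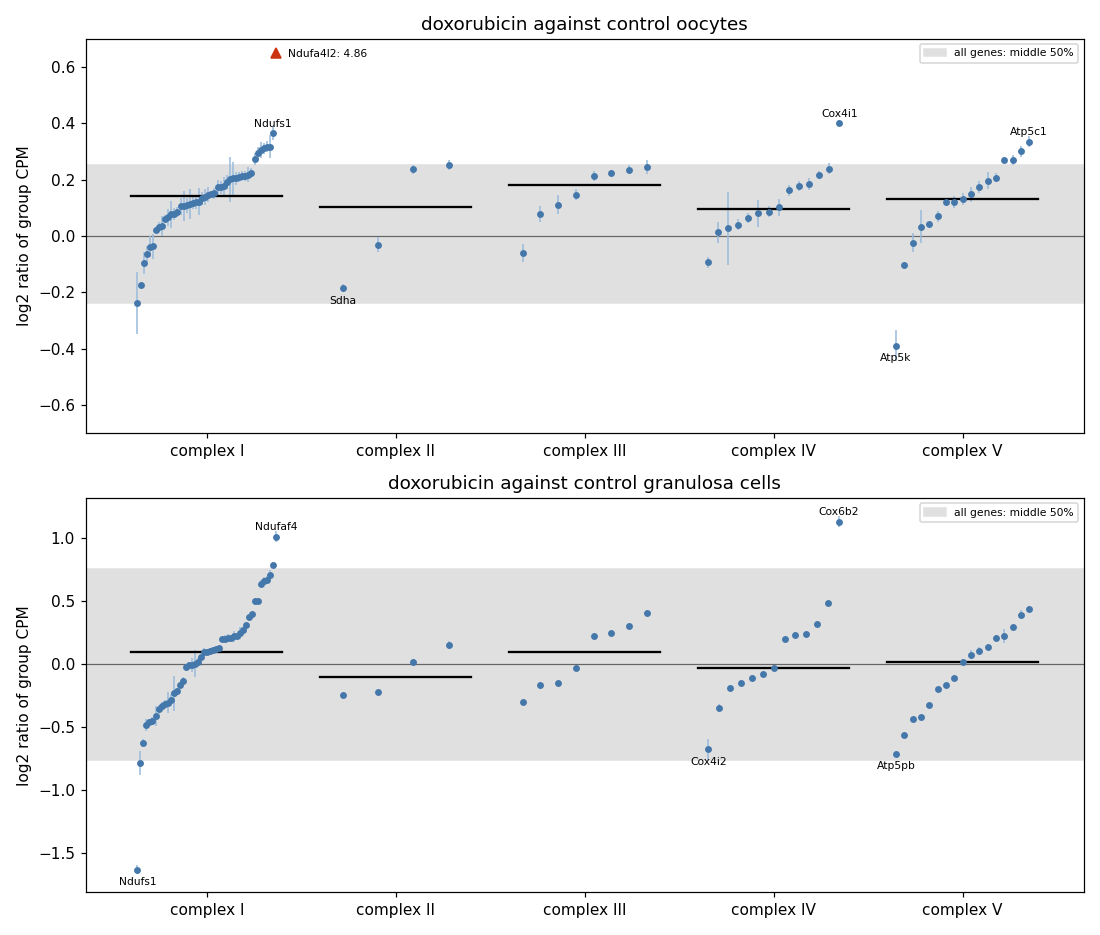
Log2 ratio of group CPM, DOXO over control, for the respiratory chain genes at 5 CPM or more, by complex and in order of value, in oocytes (upper panel) and granulosa cells (lower panel); bars are 95% counting intervals, black lines medians and the grey band the middle 50% of all genes. In oocytes the points cluster just above 0 and Ndufa4l2, drawn as a triangle at the edge of the panel, is at 4.86; in granulosa cells they spread from -1.63 for Ndufs1 to 1.13 for Cox6b2.

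Ndufa4l2 stood alone. It encodes an NDUFA4-like protein known from hypoxic cells, and its symbol puts it with complex I although its relative NDUFA4 is now counted as a complex IV subunit. Control oocytes held from 0 to 6.0 CPM with a median of 0.93, and DOXO oocytes from 0 to 129 CPM with a median of 21.03. No control oocyte exceeded 10 CPM and 10 of 16 DOXO oocytes did, while 4 cells of each group had no read, so the groups overlapped at the low end only. The group values were 1.24 and 36.0 CPM, a log2 ratio of 4.86 (95% counting interval 4.67 to 5.05), which stayed between 4.52 and 5.22 with any 1 cell left out. With libraries low in granulosa markers only, 11 DOXO and 12 control, the ratio was 4.85. Endothelium markers were also higher, with a median sum of 3.77 CPM in control and 28.7 CPM in DOXO oocytes, of which only 2 of 7 reached 5 CPM in a group; their part in the result was not tested. Over the 16 DOXO oocytes the Spearman correlation of Ndufa4l2 was 0.42 with that marker sum, 0.44 with the granulosa marker sum and 0.45 with Cdkn1a. It was 0.34 with total counts and -0.18 with the sum of stroma and theca markers. These values describe cells that share handling, and no one of the positive values stands out. The gene lies at chr10:127514967-127517154 on the plus strand of GRCm38, and its exons overlap Shmt2 on the other strand. The kit does not mark strand, so reads there cannot be told apart. Shmt2 was at 167 CPM in control and 262 CPM in DOXO oocytes.

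**Figure D3:**
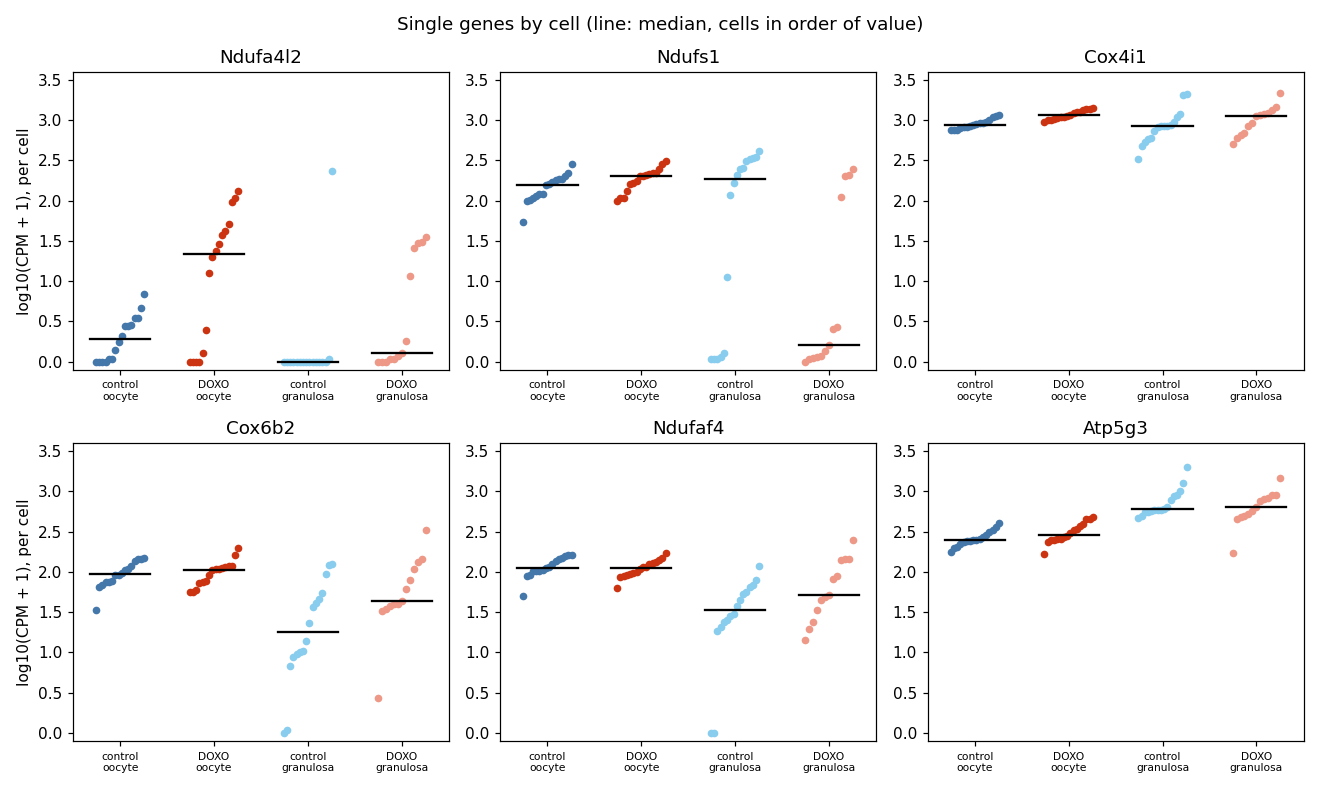
CPM of 6 genes in every cell, on a log10(CPM + 1) axis, with cells of a group in order of value and the median as a line. Ndufa4l2 exceeds 10 CPM in 10 of 16 DOXO oocytes and in no control oocyte; Ndufs1 splits the granulosa cells into libraries above 100 CPM and libraries near 0; Atp5g3 in every control oocyte is below every control granulosa cell.

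Among the other complex I genes in oocytes, core and accessory subunits alike stayed under 1.5-fold (11.8% of all genes were higher and 7.73% lower). Ndufs1, the largest subunit with iron-sulphur clusters, was at 147 CPM in control oocytes (53.9 to 284) and 189 in DOXO oocytes (98.2 to 308), a log2 ratio of 0.37. Ndufs3, also in the matrix arm, was at 169 CPM (123 to 215) against 208 (142 to 275), with 9 of 16 DOXO oocytes above every control oocyte. Ndufv1, the NADH-binding subunit, had 756 and 767 CPM. The accessory subunits Ndufa12, Ndufa11 and Ndufb10 had log2 ratios of 0.32, 0.31 and 0.30.

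Complex II, which also belongs to the citric acid cycle, was the smallest set and was divided. Sdha, the flavoprotein that oxidises succinate, was at 487 CPM in control oocytes (344 to 742) and 428 in DOXO oocytes (203 to 643), a log2 ratio of -0.19. Sdhb, its iron-sulphur partner, was at 314 (247 to 397) against 370 CPM (291 to 515), a ratio of 0.24. The membrane anchors Sdhc and Sdhd had ratios of -0.03 and 0.25. The ranges of control and DOXO oocytes overlapped for all 4.

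In complex III the core proteins Uqcrc1 and Uqcrc2 had log2 ratios of 0.22 and 0.23, and Uqcrh, the hinge protein, had 0.24. Uqcrfs1, the Rieske iron-sulphur protein, was the lowest at -0.06. In complex IV, Cox4i1 had the highest log2 ratio. Control oocytes held 745 to 1154 CPM with a median of 881, and DOXO oocytes 957 to 1426 with a median of 1144. Of the DOXO oocytes, 7 of 16 were above every control oocyte, and the log2 ratio of the group values, 887 and 1172 CPM, was 0.40 (0.36 to 0.43 with any 1 cell left out). Cox5a, another early-assembly subunit, had a ratio of 0.24 and also 7 DOXO oocytes above the control range. Cox7b was the lowest of the complex at -0.09.

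Complex V held both directions in oocytes. The gamma subunit Atp5c1, which turns in the catalytic head, was at 193 CPM in control (158 to 266) and 244 in DOXO oocytes (156 to 438), a log2 ratio of 0.34. The stalk subunits Atp5h and Atp5o had ratios of 0.30 and 0.27, and 7 DOXO oocytes held more Atp5h than any control oocyte. Atp5k, a small membrane subunit, was the lowest, with 32.4 CPM in control (13.6 to 71.4) and 24.8 in DOXO oocytes (15.6 to 39.6), a ratio of -0.39. Atp5a1, the alpha subunit of the head, was at 1841 and 1715 CPM, a ratio of -0.10. Its partner in the head, Atp5b, had a ratio of 0.04.

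In granulosa cells the 2 treatment groups did not separate as a set. Of 89 genes at 5 CPM or more, the median log2 ratio was 0.06, the median of all 12194 genes being -0.03. At least 1.5-fold higher were 7 genes (29.3% of all genes were) and at least 1.5-fold lower were 5 (29.8%). Both shares were smaller than among all genes, which were not matched for level or for variation between cells. At 2-fold, 2 genes were higher (20.6%) and 1 was lower (20%, 2440 of 12194 genes). Complex I summed to 7567 CPM in DOXO and 6936 in control granulosa cells, a log2 ratio of 0.13 that was 0.04 without DOXO granulosa cell 6. Complex V summed to 7299 and 8385 CPM, a ratio of -0.20. The oocyte markers listed above moved with these groups. Among libraries with more granulosa than oocyte markers, 5 DOXO and 11 control, the median was -0.10, against -0.076 for all genes. At least 1.5-fold higher there were 2 of 88 genes (28.1% of all genes were) and lower were 13 (31.7%). These were again smaller shares than among all genes, which were not matched.

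Ndufs1 was the lowest of all in granulosa cells. Control libraries held from 0.08 to 418 CPM with a median of 188, and DOXO libraries from 0 to 248 with a median of 0.62. Above 100 CPM were 10 of 16 control and 4 of 13 DOXO libraries, and the others except control granulosa cell 4, with 10.2 CPM, were below 2 CPM, so almost no library held an intermediate value. The group values were 172 and 55.3 CPM, a log2 ratio of -1.63 (-2.05 to -1.46 with any 1 cell left out). In the libraries with more granulosa than oocyte markers the ratio was -0.80. In oocytes, by contrast, no cell was below 53.9 CPM. Lower after doxorubicin too were Atp5pb, a stalk subunit of ATP synthase, at 304 CPM in control and 186 in DOXO granulosa cells (ratio -0.71), and Ndufv3 at 112 and 73.0 (ratio -0.62). Atp5pb shares exon sequence with Wdr77 on the other strand, which was at 136 and 72.2 CPM.

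The genes that were higher in DOXO granulosa cells were led by Cox6b2 and Ndufaf4, which were also higher in control oocytes than in the same control granulosa cells. Cox6b2, the testis-type form of a complex IV subunit that links its monomers, had from 0 to 125 CPM in control granulosa cells with a median of 17.5, and from 1.7 to 329 in DOXO cells with a median of 42.7. The log2 ratio was 1.13, and 1.78 in the libraries kept by markers. Ndufaf4, which helps assemble complex I, had medians of 32.9 and 50.3 CPM and a ratio of 1.02, but -0.22 in the kept libraries. Within DOXO granulosa libraries Ndufaf4 had a median of 114 CPM in the 8 with more oocyte markers and 23.2 CPM in the 5 with more granulosa markers. The complex I subunits Ndufa8, Ndufa6, Ndufb6 and Ndufa2 had ratios of 0.79, 0.67, 0.67 and 0.64. Ndufaf7, a further assembly factor, had 0.71.

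Ndufa4l2 and Cox4i2, the lung-type form of COX4, show how a single library can set a granulosa value. Ndufa4l2 had a log2 ratio of -0.78, but 230 CPM in control granulosa cell 3 made up nearly all of the control value, and 14 of 16 control libraries had no read. Without that library the ratio was 9.01, a value fixed by few control counts. Of 13 DOXO granulosa libraries, 5 held more than 10 CPM. Cox4i2 had a ratio of -0.68 and was 0.25 in the kept libraries.

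More genes passed 1.5-fold between control oocytes and control granulosa cells than in either treatment comparison, which was also so among all genes. The complexes differed. This comparison shares its cells with the control side of the others. Of 90 genes at 5 CPM or more, the median log2 ratio of oocytes over granulosa cells was -0.14, where all 12373 genes had -0.03. At least 1.5-fold higher in oocytes were 10 genes (37.0% of all genes were) and at least 1.5-fold lower were 19 (38.7%). At 2-fold the counts were 5 (29.0%) and 10 (31.3%), and 52 of 90 genes lay below 0 (50.7%). Complex V summed to 6018 CPM in oocytes and 8385 in granulosa cells, a log2 ratio of -0.48 that stayed between -0.51 and -0.44 with any 1 cell left out. Complex I summed to 7744 and 6936 CPM, a ratio of 0.16. Of the 19 genes lower in oocytes 7 were of complex V and 8 of complex I, and none of the 10 higher ones was of complex V.

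**Figure D4:**
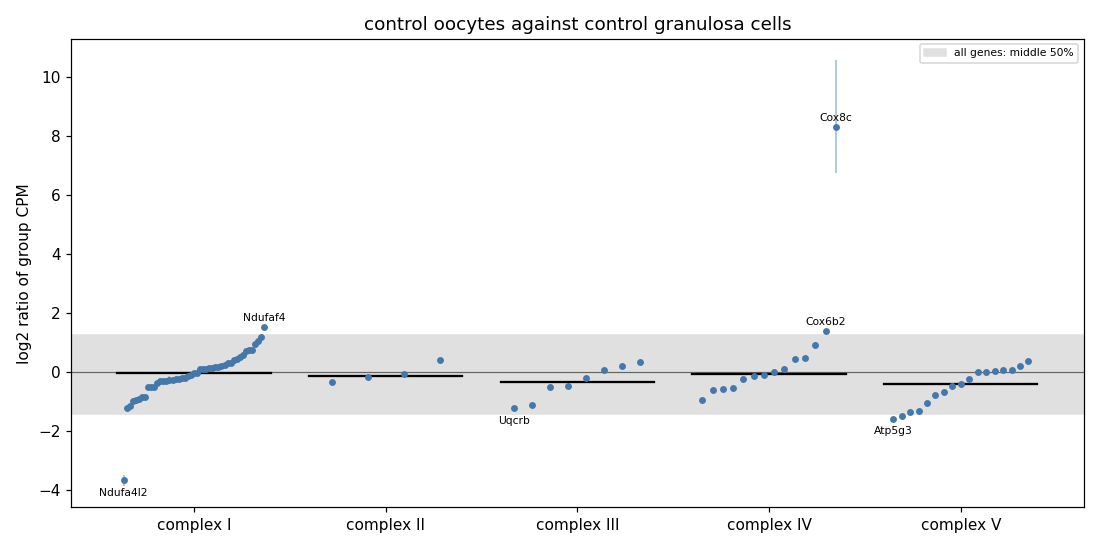
Log2 ratio of group CPM, control oocytes over control granulosa cells, by complex and in order of value, for the 90 genes at 5 CPM or more; bars are 95% counting intervals, black lines medians and the grey band the middle 50% of all genes. Complex V has the lowest median, -0.42, and Cox8c, with no read in control granulosa cells, is drawn at its lower bound of 8.28.

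Of the 17 complex V genes, 11 lay below 0 in oocytes over granulosa cells (50.7% of all genes did), and the 7 at least 1.5-fold lower are a share near the 38.7% of all genes. Atp5g3, which encodes the membrane ring subunit c, was at 258 CPM in control oocytes (175 to 403) and 780 in control granulosa cells (469 to 2027). All 16 oocytes were below every granulosa cell, and the log2 ratio was -1.60. Atp5j, a coupling factor of the stalk, was at 106 CPM (66.2 to 176) against 299 (143 to 481), with 13 oocytes below every granulosa cell and a ratio of -1.49. Atp5md was at 26.1 against 67.5 CPM, a ratio of -1.37; its exons overlap Taf5, which was at 228 and 31.1 CPM. The gamma subunit Atp5c1 and the catalytic Atp5b had ratios of -1.31 and -1.05. Atp5b ran from 1009 to 1695 CPM in oocytes and from 464 to 3770 in granulosa cells, so these groups overlapped. The alpha subunit Atp5a1 went the other way, with 1841 CPM in oocytes and 1440 in granulosa cells, a ratio of 0.35.

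Core subunits of complex I were split between the cell types, among them Ndufv1 and Ndufs7 higher in oocytes and Ndufv2, Ndufs1, Ndufs3 and Ndufs8 lower. Ndufv1 was at 756 CPM in control oocytes (528 to 912) and 332 in control granulosa cells (0.31 to 1170), a log2 ratio of 1.19, and above 500 CPM were all 16 oocytes and 2 of 16 granulosa cells. Ndufaf4 had 117 CPM (49.2 to 162) against 40.8 (0 to 118), a ratio of 1.52. The 8 assembly factors summed to 326 CPM in oocytes and 245 in granulosa cells, a ratio of 0.41, although Ndufaf1 was lower in oocytes at -1.16. The accessory subunits Ndufa12, Ndufc2 and Ndufc1 were lower in oocytes with ratios of -1.22, -0.97 and -0.96.

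In complexes II to IV the cell types differed gene by gene. The complex II genes lay between -0.34 for Sdhd and 0.42 for Sdhc. In complex III, Uqcrb, which binds ubiquinone, was at 67.6 CPM in oocytes (43.6 to 107) and 159 in granulosa cells (94.3 to 231), with 13 of 16 oocytes below every granulosa cell and a ratio of -1.23. The Rieske protein gene Uqcrfs1 was at 84.6 and 184 CPM, a ratio of -1.12, while Uqcr11 was at 0.35. In complex IV, Cox6a1, a subunit made in most tissues, was at 231 CPM in oocytes (151 to 393) and 355 in granulosa cells (160 to 682), ranges that overlapped; its ratio was -0.62, and -0.53 without control oocyte 16. Cox7c had the lowest ratio, -0.95, and Cox5b and Cox7b were higher in oocytes with 0.43 and 0.46.

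Complex IV also has subunits with tissue-type copies, and the common form made up most of each pair in all 4 groups. Cox6b2 made up 30.9% of the CPM per kb of the Cox6b1 and Cox6b2 pair in control oocytes, 29.8% in DOXO oocytes, 10.5% in control granulosa cells and 22.7% in DOXO granulosa cells. Cox8c, a testis-type form of COX8, had reads in 15 of 16 control oocytes, with a median of 4.45 CPM and at most 14.5 CPM, and no read in any of the 16 control granulosa cells. Taking 3 counts over that group as the limit, it was at least 312-fold higher in oocytes. Its single DOXO granulosa library with reads, cell 4 at 55.7 CPM, also had 25830 CPM of oocyte markers. Cox4i2 was 4.09% of its pair in control oocytes and 2.20% in control granulosa cells. The muscle-type forms Cox6a2 and Cox7a1 stayed below 5 CPM in every group, as did Cox7b2. In complex V, Atp5g3 was 44.6% of the subunit c family in control oocytes and 61.2% in control granulosa cells, a share that leans on the assumed transcript lengths.

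The balance of complex V to complex I was higher in 15 of 16 control granulosa cells than in any control oocyte. The ratio of their summed CPM, with assembly factors left out, ran from 0.72 to 0.92 over control oocytes and from 0.66 to 0.94 over DOXO oocytes. In control granulosa cells it ran from 0.68 to 1.83 and exceeded 1 in 14 of 16. In DOXO granulosa cells it ran from 0.64 to 1.49 and exceeded 1 in 6 of 13. The 2 control granulosa libraries below 1, cells 8 and 14, held 17523 and 9885 CPM of oocyte markers, the highest of that group. Over the 13 DOXO granulosa libraries the Spearman correlation of the ratio with the oocyte marker sum was -0.92, and over the 16 control libraries it was -0.59, values that describe libraries and share their counting. In the 5 DOXO libraries with more granulosa than oocyte markers the ratio ran from 1.18 to 1.49 with a median of 1.26, against 0.64 to 1.13 and 0.88 in the other 8. The control libraries did not divide in that way: the 11 with more granulosa markers ran from 1.04 to 1.83 with a median of 1.24, and the 5 with more oocyte markers from 0.68 to 1.38 with a median of 1.33.

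**Figure D5:**
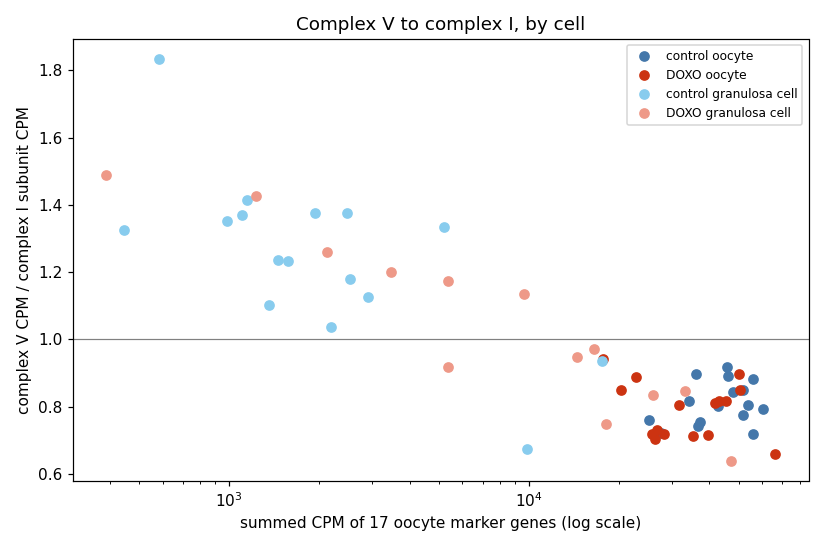
Ratio of summed complex V CPM to summed complex I subunit CPM in each cell, against the summed CPM of 17 oocyte marker genes on a log axis; colours mark the 4 groups and the line marks equal sums. All 32 oocytes lie below 1, and the granulosa libraries with the most oocyte markers lie near them.

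Other genes of the pathway were compared in the same way. Of 8 electron carriers and related genes in the table, 7 were higher in DOXO than control oocytes (51.1% of all genes were), with a median log2 ratio of 0.31 and none at least 1.5-fold. In DOXO granulosa cells 7 of the 8 were lower (51.1%), with a median of -0.31, and 2 were at least 1.5-fold lower (29.8%). These were Etfa and Etfdh of electron transfer from fatty acid oxidation, with ratios of -0.92 and -1.03. Cycs, the somatic cytochrome c, was at 56.8 CPM in control and 79.7 in DOXO oocytes, a ratio of 0.49, and at 231 CPM in control granulosa cells. Etfb, the partner of Etfa in the electron transfer flavoprotein, had -2.06 in oocytes over granulosa cells. Of 36 assembly factors outside the symbol rule, 35 were compared in oocytes with a median of 0.03, and only Cox15, which makes haem A, was at least 1.5-fold higher (11.8% of all genes were), with a ratio of 0.62 that was 0.44, under 1.5-fold, without control oocyte 16. Cox10, which acts in the same haem pathway, was at 146 CPM in control oocytes and 11.9 in control granulosa cells.

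A list of 12 regulators held factors for nuclear genes of the pathway and for mitochondrial transcription, and 9 were compared in oocytes. Of these, 1 was at least 1.5-fold higher after doxorubicin (11.8% of all genes were) and 1 lower (7.73%). The higher one was Yy1, a transcription factor, at 3.77 CPM in control and 6.78 in DOXO oocytes, a log2 ratio of 0.85. Yy1 met the 5 CPM filter only through the DOXO group and lay near that floor, so it could enter only as higher. The lower one was Polrmt, the mitochondrial RNA polymerase, with 120 CPM in control and 74.7 in DOXO oocytes, a log2 ratio of -0.68. In granulosa cells 9 regulators were compared, of which 2 were at least 1.5-fold higher after doxorubicin (29.3% of all genes were) and 4 lower (29.8%). Tfam had a ratio of -1.58 (-1.86 to -1.30 with any 1 cell left out) and Tfb2m -2.09 (-2.78 to -1.77). Pprc1 and Yy1 were also lower but changed sign with 1 control cell left out. Polrmt was among the higher ones, with 2.65 CPM in control granulosa cells and 126 in DOXO granulosa cells, a level not below that of either oocyte group. The oocyte markers summed to 3128 CPM in control and 13538 in DOXO granulosa cells. They summed to 44860 CPM in control and 36501 in DOXO oocytes, and their part in the Polrmt value was not tested. Control granulosa cell 1 held 97.1% of the Polrmt reads of its group, and the ratio of 5.57 was 10.58 without it, a value set by few counts. Of 18 citric acid cycle genes, 1 was at least 1.5-fold higher in DOXO oocytes, against 11.8% of all genes, which were not matched for level. This was Idh2, which makes NADPH in mitochondria and was at 31.4 CPM in control oocytes, 48.2 in DOXO oocytes and 694 in control granulosa cells. Ucp2, a carrier of the inner membrane, was at 12.2 and 38.5 CPM in oocytes and 619 in control granulosa cells. The log2 ratios, DOXO over control oocytes, were 0.62 for Idh2 and 1.66 for Ucp2. With any 1 cell left out, Idh2 ran from 0.41 to 0.80 and Ucp2 from 1.30 to 2.23. Both lowest values came without DOXO oocyte 9, which held the most granulosa markers of that group. The highest came without control oocyte 3 for Idh2 and control oocyte 16 for Ucp2. Both genes are abundant in granulosa cells, and the part of granulosa RNA was not tested.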

How the data were processed

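Single cells were lysed and their polyadenylated RNA was made into cDNA with the SMART-seq v4 kit and tagged with Nextera XT, per the labels' protocols. The values the authors deposited are estimated counts, 1 row per gene and 1 column per cell; 34.0% of those above 0 have a fractional part. The submitters' processing notes name Partek, Bowtie2, HISAT2, DESeq2 and the build mm10 without their roles; the annotation, the counting step and any filters are not given in the sources used here. Rows whose symbols had become dates numbered 22 and held 0.144% of counts. The raw reads of DOXO oocyte 4 are recorded as lost, and its column was used.

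Estimated counts were rounded, summed over a group's cells and scaled by the group's total count over the whole table (CPM). The value of a gene is the log2 ratio of group CPM, with a group under 3 counts set to 3 counts, and a 95% exact conditional binomial (Clopper-Pearson) interval; levels have exact Poisson intervals. PCR copies without molecular identifiers are not independent molecules, so intervals cover counting error only. Genes at 5 CPM or more in either group were compared, and a gene was counted as higher or lower at 1.5-fold. Every group is 1 sample, so there was no test. No pair of libraries in a group agreed within sampling noise: the closest had a chi-square per degree of freedom of 56.7. Libraries kept by markers are oocyte libraries under 200 CPM of granulosa markers and granulosa libraries with more granulosa than oocyte markers. Genes were matched by symbol to GENCODE M21 (GRCm38), which gave the median length of each gene's protein-coding transcripts. Named genes are a fixed panel of core subunits and tissue-type copies, the lowest and highest gene of each complex, and in each comparison up to 8 genes in each direction among those at 20 CPM or more with at least 5 reads in 75% of cells, ranked by their smallest ratio with any cell left out; genes past 1.5-fold outside this rule, and those named to show a library's weight, were added after their values were seen. One gene that the rule names is not reported here. The genes and lists were chosen with earlier results of these data known. Alternatives were equal-weight cell means, cell medians, TMM and DESeq2 scaling, other filters, a 2-fold threshold, kept libraries, subunits only and each cell left out. The ratio step was checked on simulated counts. Python 3.11.15, numpy 2.4.6, pandas 2.3.3, scipy 1.17.1, matplotlib 3.10.9, R 4.3.3, edgeR 4.0.16 and DESeq2 1.42.0 were used.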

Additional observations from a re-analysis of the deposited data

Results flagged for a closer look

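Ndufs1, Ndufaf4 and Atp5pb had opposite directions in the 2 cell types after doxorubicin; the differences were not tested, since each group is 1 sample. Ndufs1 had a log2 ratio of -1.63 in granulosa cells and 0.37 in oocytes. Ndufaf4 had 1.02 in granulosa cells and -0.06 in oocytes. Atp5pb had -0.71 in granulosa cells and 0.12 in oocytes. In the granulosa libraries kept by markers, Ndufs1 and Atp5pb remained below 0, at -0.80 and -0.73. Ndufaf4 was at -0.22 there, below 0 as in oocytes, so its directions were no longer opposite. Only the respiratory chain genes were searched for opposite directions, and no share over all genes was counted.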

How the results depend on the processing

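No paired analysis was possible because no label pairs cells and each group is 1 sample with no test. In oocytes, the count of genes at least 1.5-fold higher after doxorubicin was 2 with a filter of 1 CPM and 5 with no filter; the median ran from 0.0908 (without control oocyte 16) to 0.19 (without control oocyte 3) with 1 cell left out, and the counts stayed at 1 and 0. In granulosa cells after doxorubicin, the median was -0.10 in libraries kept by markers and -0.00311 when libraries with more stroma than granulosa markers were also left out, an alternative chosen after seeing the data, and ran from -0.00453 (without DOXO granulosa cell 14) to 0.14 (without DOXO granulosa cell 13) with 1 cell left out. The count of higher genes was 2 in the kept libraries and 2 at 2-fold, and 5 to 9 with 1 cell left out. The count of lower genes was 3 with a filter of 20 CPM, 13 in the kept libraries, 11 with stroma also left out and 1 at 2-fold, and 3 (without control granulosa cell 3) to 9 (without DOXO granulosa cell 12) with 1 cell left out. Between the control cell types, the median was -0.0250 from cell medians, -0.0459 with DESeq2 size factors (which shift all genes by 0.09) and -0.18 with stroma also left out, and ran from -0.180 to -0.0598 with 1 cell left out. Higher in oocytes were 16 genes from cell medians, a setting under which 60.7% of all genes were higher and their median was 1.53, and 5 at 2-fold, and 9 to 11 with 1 cell left out; lower were 10 at 2-fold and 18 to 22. The cause of these moves was not tested. In granulosa cells Ndufaf4 reversed to -0.22 and -0.0701, Cox4i2 to 0.25, 1.02 and 0.93 and Ndufa4l2 to 6.75, 6.90 and 0.35 in the kept libraries, with stroma also left out, or from cell medians. Between cell types Ndufa4l2 reversed to 5.42, 5.10 and 0.94 likewise. With 1 cell left out, Cox4i2 in granulosa cells ran from -1.03 to 0.20 (without control granulosa cell 3), Ndufa4l2 there from -1.11 to 9.01 (without the same cell), and Ndufa4l2 between cell types from -4.04 to 6.11 (again without it). Of the named genes past 1.5-fold, 1 of 1, 8 of 11 and 20 of 21 kept their sign under all alternatives in the 3 comparisons.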

Other observations

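The 7 rows that ended in -ps were left out of all sums. Ndufb1-ps was the only one above 5 CPM, with 35.8 CPM in control oocytes, 28.5 in DOXO oocytes, 42.7 in control granulosa cells and 36.0 in DOXO granulosa cells, and Ndufab1-ps lay between 3.58 and 3.84 CPM in the 4 groups. Ndufb4c, annotated as a processed pseudogene, was at 8.12 and 6.89 CPM in control and DOXO oocytes and at 9.02 and 9.05 CPM in the granulosa groups.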
